A study of Mus musculus with 4 samples.

Results

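Levels of 10 integrin genes were followed through 4 sorted fractions of marrow cells. The mice were female, of C57BL6 background and 8 weeks of age. The genes were chosen by name as a list, Itga2, Itga4, Itga5, Itga6, Itgal, Itgam, Itgav, Itgb1, Itgb2 and Itgb7, out of 20284 named genes on the array, and all 16 of their probes were read through the accession each probe carries. Gene expression was measured on single-colour Agilent arrays, with 1 array per fraction. Stem cells were gated as c-Kit-positive, Sca-1-positive and lineage-negative, and were split by CD34 into long-term cells without it (LT-HSC) and short-term cells with it (ST-HSC). The progenitor sample is labelled c-Kit-positive and lineage-negative. A protocol shared by all samples adds that it lacked Sca-1 and names lineage-positive cells too, so its gate is not settled. The differentiated fraction was lineage-positive (Lin+). The labels give neither the antibodies of the lineage mixture nor the number of mice. An antibody to CD11b, the product of Itgam, is a usual part of such mixtures, so Itgam may be a gene the sort itself used.

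Integrins are surface receptors made of an alpha and a beta chain that bind other cells and the matrix between cells. Their heads are kept in a low-affinity shape until talin and kindlin bind the tail of the beta chain, which signals from cytokine or antigen receptors can start. In blood cells the beta 2 chain, encoded by Itgb2, pairs with alpha L (Itgal) to form LFA-1 and with alpha M (Itgam) to form Mac-1, and both bind ICAM proteins. Alpha 4 (Itga4) pairs with beta 1 (Itgb1) to bind VCAM-1 and fibronectin, and with beta 7 (Itgb7) to bind MAdCAM-1 in the gut. Alpha 5 and alpha 6 pair with beta 1 as receptors of fibronectin and of laminin. Alpha 2 with beta 1 binds collagen, and alpha V binds vitronectin and other matrix proteins. Stem cells are held in the marrow in part through alpha 4 beta 1.

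Levels are log2 signals relative to the 75th percentile of all probes on the same array, so 0 is that percentile and a difference of 1 is 2-fold. From LT-HSC to Lin+ cells that percentile was 191.5, 217.5, 137.5 and 230.4 intensity units, and 40.9% to 45.9% of probes were well above background. A gene was called different at 2-fold or more with at least 1 side well above background. With 1 array per fraction no p-value can be given, and ± values are the spot error computed by the scanner software, which leaves out the spread between mice. A level on 1 probe was not set against that on another. Fewer cells of a type and less RNA per cell cannot be told apart in such bulk samples. Markers followed the labels in part. All 12 long-term HSC markers were well above background in LT-HSC, and their summed signal, in units of the 75th percentile, was 187, 83.4, 24.9 and 25.7 from LT-HSC through ST-HSC and progenitors to Lin+ cells. Most of the sum in Lin+ cells was Ly6a, the gene of the sorting antigen Sca-1, at a level of 4.51 against 2.28 in progenitors. Of 8 measured long-term HSC markers 6 were lower in Lin+ cells than in progenitors and 1 was higher. The 11 neutrophil markers on the array summed to 8.82, 8.51, 193 and 9185 in LT-HSC, ST-HSC, progenitors and Lin+ cells. The 10 B cell markers summed to 19.1, 20.6, 22.8 and 420, the 10 T cell markers to 17.98, 19.2, 13.8 and 87.6, and the 10 NK cell markers to 4.13, 2.62, 3.43 and 25.1. Granulocyte-monocyte progenitor markers summed to 264, 1664, 5492 and 2387, and megakaryocyte and platelet markers to 212, 26.7, 308 and 11.1. Trat1 of the T cell list, Klrk1 of the NK cell list and Gp6 of the megakaryocyte list were not well above background on any array.

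**Figure D1:**
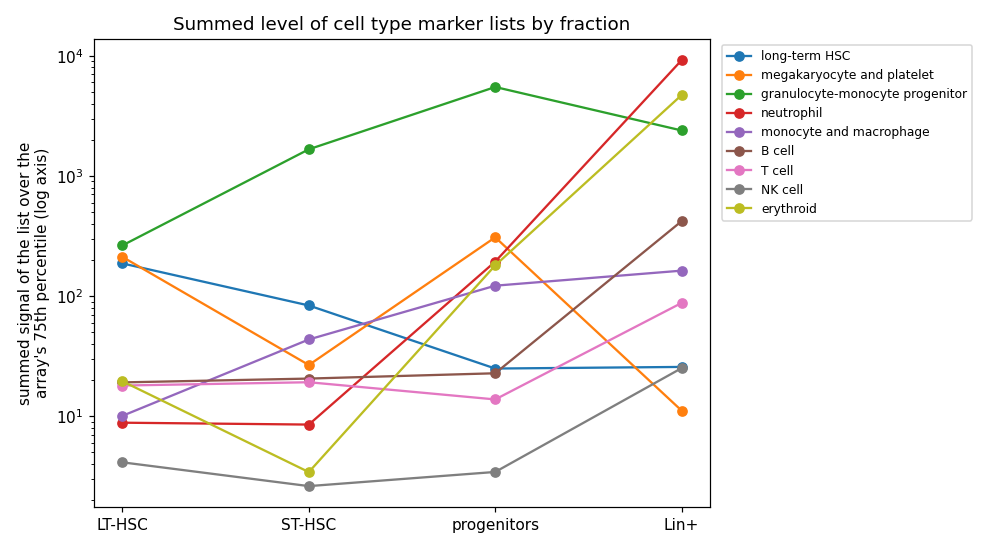
Summed linear signal of each marker list, in units of the array's 75th percentile on a log axis, for the 4 fractions, with 1 array each. Neutrophil and erythroid markers were highest in Lin+ cells, long-term HSC markers in LT-HSC, and megakaryocyte markers in progenitors and LT-HSC.

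**Figure D2:**
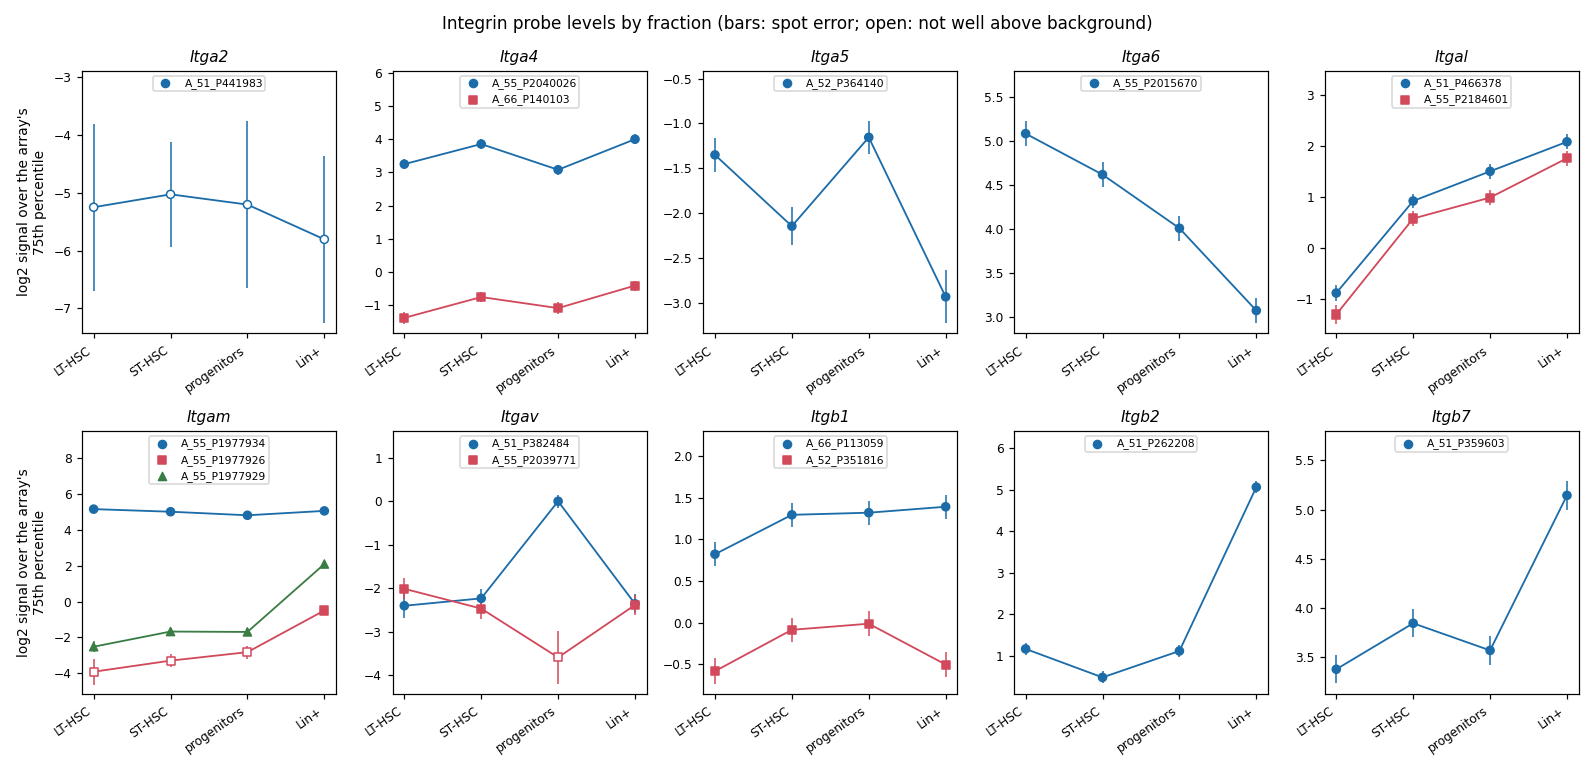
Level of each probe of the 10 integrin genes (log2 signal over the array's 75th percentile, 1 panel per gene, 1 line per probe) in LT-HSC, ST-HSC, progenitors and Lin+ cells. Bars are the spot error and open symbols mark signals not well above background. Itgal is higher at each step (not for progenitors against ST-HSC with spike-in scaling, -0.0439) and Itga6 lower at each step (with spike-in scaling -0.16 for ST-HSC against LT-HSC and -0.33 for Lin+ cells against progenitors, both within 1.96 spot errors of 0), Itgb2 and Itgb7 are highest in Lin+ cells, and the probes of Itgam and of Itgav do not run together.

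The leukocyte beta 2 chain and its alpha L partner were higher in Lin+ cells than in LT-HSC, but at different steps. The levels of Itgb2 from LT-HSC through ST-HSC and progenitors to Lin+ cells were 1.16, 0.48, 1.11 and 5.07. The Lin+ array stood far above the other 3, and LT-HSC and progenitors, next to each other in rank, differed by less than their spot error. Itgb2 was 15.5-fold higher in Lin+ cells than in progenitors, a difference of 3.95 ± 0.21, and 15.0-fold higher than in LT-HSC. It was lower in ST-HSC than in LT-HSC by a difference of -0.69 ± 0.21, short of 2-fold. With spike-in scaling this difference was -0.38, within 1.96 spot errors of 0. Itgal had levels of -0.88, 0.92, 1.502 and 2.08 in LT-HSC, ST-HSC, progenitors and Lin+ cells, and each step of that order exceeded 1.96 spot errors. Its largest step came first: Itgal was 3.48-fold higher in ST-HSC than in LT-HSC, a difference of 1.80 ± 0.22, and was the only one of the 10 genes called in that comparison. The later steps were 0.58 ± 0.21 for progenitors against ST-HSC and 0.58 ± 0.20 for Lin+ cells against progenitors, and scaling to the spike-in controls put the first of these at -0.0439. The other probe of Itgal gave -1.30, 0.58, 0.99 and 1.76 in the same order, and 1.88 ± 0.23 for ST-HSC against LT-HSC. Both probes of Itgal thus placed LT-HSC lowest and Lin+ cells highest, 7.77-fold and 8.31-fold apart.

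The marker lists moved unequally with these steps. Between ST-HSC and LT-HSC, where Itgal differed most, granulocyte-monocyte progenitor markers were called higher in ST-HSC for 7 of 9 and the summed monocyte and macrophage markers were 43.5 in ST-HSC against 10.06 in LT-HSC, with 2 of 7 measured higher and 1 lower. Most of both sums was Csf1r, which had 5.36 in ST-HSC and 3.08 in LT-HSC on its brightest probe. Another of its probes had 0.49 in ST-HSC and 0.615 in LT-HSC. The remaining Csf1r probe had -0.31 in ST-HSC and was not well above background in LT-HSC. No B cell or T cell marker was called there (0 of 3 and 0 of 4 measured), and of 5 measured NK cell markers 2 were lower. Between Lin+ cells and progenitors, where Itgb2 differed most, all 11 neutrophil markers, 9 of 11 monocyte and macrophage markers and all 10 B cell markers were higher in Lin+ cells, as were 7 of 9 measured T cell, 6 of 9 NK cell and 7 of 10 erythroid markers. Their part in the levels of Itgal and Itgb2 was not tested.

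The 3 probes of Itgam, which encodes CD11b, gave 2 different pictures. The brightest, A_55_P1977934, had levels of 5.17, 5.03, 4.83 and 5.07 in LT-HSC, ST-HSC, progenitors and Lin+ cells. At this scaling no 2 arrays differed by more than 1.96 spot errors. With detected-probe, quantile and spike-in scaling Lin+ cells against progenitors gave 0.64, 0.68 and 0.85. Progenitors against ST-HSC gave -0.46, -0.61 and -0.82. All of these exceeded 1.96 spot errors and none reached 2-fold. With median scaling the values were 0.18 and -0.36, within 1.96 spot errors of 0. Probe A_55_P1977929, which the array assigns to the same transcript accession as the brightest, had -2.52, -1.67, -1.69 and 2.10, all well above background. Probe A_55_P1977926, assigned to the other Itgam transcript, had -0.49 in Lin+ cells and was not well above background on the other 3 arrays, where its signals lay at -3.92, -3.30 and -2.82. On A_55_P1977929 Itgam was 13.9-fold higher in Lin+ cells than in progenitors, a difference of 3.79 ± 0.26, and 24.6-fold higher than in LT-HSC. On A_55_P1977926 it was at least 5.025-fold higher than in progenitors and at least 5.455-fold higher than in LT-HSC. The bright probe gave 0.24 ± 0.20 and -0.10 ± 0.20 for these comparisons, with an interval of 1.96 spot errors from -0.16 to 0.64 against progenitors. The gap between the measured probes of Itgam was 3.55 for Lin+ cells against progenitors and 4.72 against LT-HSC. Among all genes with several measured probes the median gap was 0.34 and 0.40, and 10.5% of 2643 and 15.8% of 2627 genes had a gap of 2-fold or more. The brightest-probe rule therefore counts Itgam as not called, while the other probes call it higher in Lin+ cells together with Itgb2, whose difference on its only probe was 3.95. The cause of the disagreement was not tested, and the probe sequences were not used here.

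Alpha 4 and its partners beta 1 and beta 7 were well above background in every fraction. Itga4 had levels of 3.25, 3.85, 3.08 and 3.998 in LT-HSC, ST-HSC, progenitors and Lin+ cells, alternating between steps with no difference of 2-fold at this scaling. It was higher in ST-HSC than in LT-HSC by 0.61 ± 0.20 and higher in Lin+ cells than in progenitors by 0.92 ± 0.20, while progenitors against ST-HSC gave -0.77 ± 0.20. The other Itga4 probe had -1.38, -0.75, -1.08 and -0.41, the same alternation, and gave 0.63, 0.68 and -0.33 for those comparisons, the last within 1.96 spot errors of 0. The Lin+ against progenitor difference of Itga4 crossed 2-fold under 5 of the other scalings or corrections, at 1.12 to 1.52. Progenitors against ST-HSC crossed it at -1.03 with detected-probe and -1.40 with spike-in scaling, and Lin+ cells against LT-HSC, at 0.75, reached 1.04 with spike-in scaling. Itgb7 had 3.38, 3.85, 3.57 and 5.14, with Lin+ cells apart from the other 3 arrays. It was 2.98-fold higher in Lin+ cells than in progenitors (1.57 ± 0.20) and 3.40-fold higher than in LT-HSC (1.77 ± 0.20), on 1 probe. ST-HSC was above LT-HSC by 0.47 ± 0.20, and the interval of progenitors against ST-HSC, -0.68 to 0.12, includes 0. That difference of Itgb7 reached -0.90 with spike-in scaling and -0.54 among the other settings, both more than 1.96 spot errors from 0. Itgb1, the most widely shared beta chain, spanned 0.57 over the 4 arrays on each of its probes, with levels of 0.82, 1.29, 1.32 and 1.39. LT-HSC was lowest, below ST-HSC by more than the spot error (ST-HSC minus LT-HSC 0.47 ± 0.21). The other 3 fractions did not differ beyond the spot error at this scaling. With spike-in scaling progenitors against ST-HSC gave -0.60 and Lin+ cells against progenitors 0.67, both beyond 1.96 spot errors. The latter was also beyond them with detected-probe scaling (0.46) and with the median gene set to 0 (0.49). The interval of Lin+ cells against progenitors ran from -0.33 to 0.47 on that probe and from -0.90 to -0.076 on the other Itgb1 probe, whose levels were -0.58, -0.085, -0.012 and -0.50.

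Alpha 6 and alpha 5 were both lower in Lin+ cells than in LT-HSC. Itga6, which encodes CD49f and whose protein is used to enrich stem cells, had levels of 5.09, 4.62, 4.01 and 3.07 in LT-HSC, ST-HSC, progenitors and Lin+ cells. Each step down exceeded 1.96 spot errors and none reached 2-fold on its own: ST-HSC minus LT-HSC was -0.47 ± 0.20, progenitors minus ST-HSC -0.61 ± 0.20 and Lin+ minus progenitors -0.94 ± 0.20. Together they left Itga6 4.04-fold lower in Lin+ cells than in LT-HSC (-2.01 ± 0.20), and every scaling and correction tried kept this between -2.27 and -1.72. The single steps depended on the scaling: with spike-in scaling they were -0.16, -1.23 and -0.33, of which the first and the last lay within 1.96 spot errors of 0 and the middle one was called, and with median scaling Lin+ minus progenitors was called at -1.004. Long-term HSC markers were lower alongside it for 11 of 12 in Lin+ cells against LT-HSC, and megakaryocyte and platelet markers, a lineage that also carries alpha 6, for 10 of 10 measured. Of 10 measured megakaryocyte markers 9 were higher in progenitors than in ST-HSC, and Itga6 was lower. The part of these cells in the level of Itga6 was not tested. Itga5, the fibronectin receptor chain, had signals near background, at -1.35, -2.15, -1.16 and -2.93, equal to 75.1, 49.2, 61.7 and 30.2 intensity units. Progenitors and LT-HSC did not differ beyond the spot error, ST-HSC lay below both, and Lin+ cells were lowest. Itga5 was 3.43-fold lower in Lin+ cells than in progenitors (-1.78 ± 0.35) and 2.99-fold lower than in LT-HSC (-1.58 ± 0.35). The first became -0.86 and the second -0.66 with normexp background correction, both under 2-fold. Progenitors against ST-HSC gave 0.99 ± 0.28, the nearest miss of the 2-fold call among the brightest probes. With spike-in scaling this difference was 0.37, within 1.96 spot errors of 0. At this scaling Itga5 and Itga6, both partners of beta 1, were thus both lower in ST-HSC than in LT-HSC and in Lin+ cells than in progenitors, and differed in sign between progenitors and ST-HSC. For ST-HSC against LT-HSC, Itga5 gave -0.35 with normexp and -0.49 with spike-in scaling, both within 1.96 spot errors of 0.

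The 2 probes of Itgav, the alpha V chain, differed in how progenitors lay relative to the other fractions. The brighter, A_51_P382484, had levels of -2.40, -2.23, 0.0054 and -2.35 in LT-HSC, ST-HSC, progenitors and Lin+ cells, with intensities of 36.3, 46.4, 138 and 45.1. Only progenitors stood apart, and the other 3 did not differ beyond the spot error. The other probe, A_55_P2039771, had -2.01, -2.46 and -2.38 in LT-HSC, ST-HSC and Lin+ cells and was not well above background in progenitors, at an intensity of 11.4. By the first probe Itgav was 4.70-fold higher in progenitors than in ST-HSC (2.23 ± 0.26) and 5.13-fold lower in Lin+ cells than in progenitors (-2.36 ± 0.26). By the other it was lower in progenitors by at least 1.32-fold, and higher in Lin+ cells than in progenitors by at least 1.40-fold. With the mean of both probes the differences were 0.55 and -0.58 and no call remained, so the Itgav calls rest on 1 spot of 1 array. Itga2, whose product CD49b marks NK cells and platelets, was not well above background in any fraction: its signals were 5.04, 6.68, 3.73 and 4.12 intensity units in LT-HSC, ST-HSC, progenitors and Lin+ cells. No difference of Itga2 was resolved, and a signal below background does not show that the RNA was absent.

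**Figure D3:**
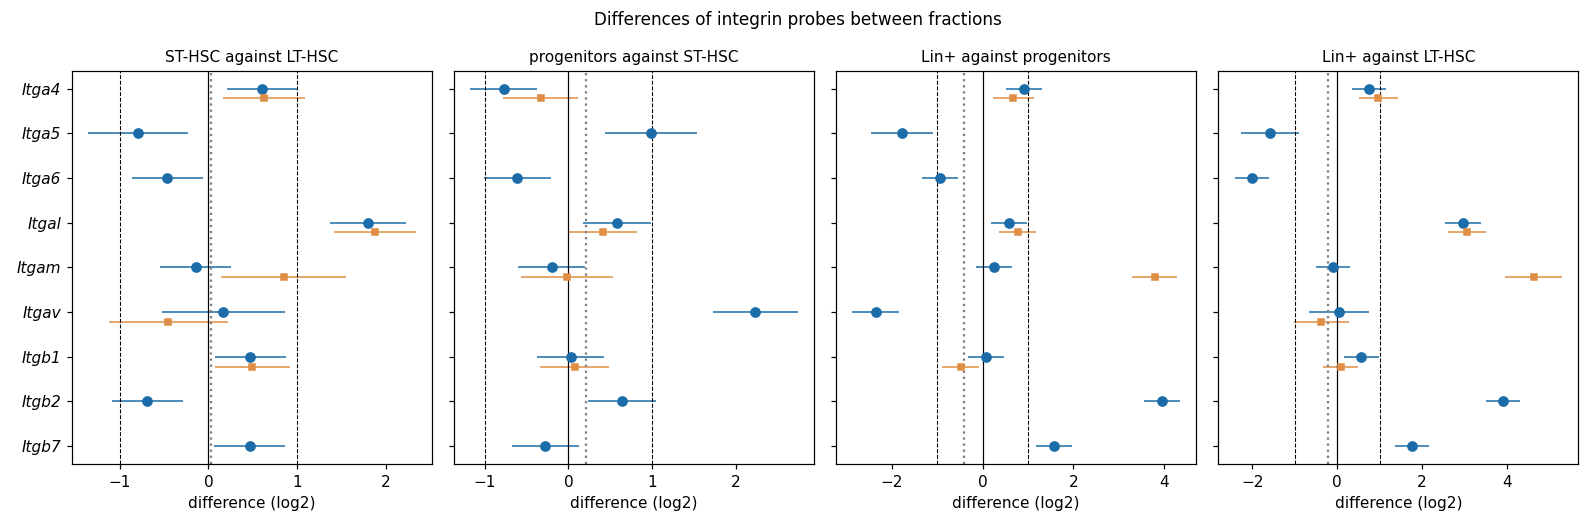
Difference (log2) of each measured probe of 9 integrin genes in the 4 comparisons, first-named fraction minus second, with bars of 1.96 spot errors. Circles are the brightest probe of a gene, squares its other probes, dashed lines 2-fold and the dotted line the median of all named genes. Itgal stands out in ST-HSC against LT-HSC, and Itgb2 and 1 probe of Itgam in both Lin+ comparisons.

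Counted over the genes, 9 of 10 integrins could be compared, all 9 well above background on all 4 arrays by their brightest probe. In ST-HSC against LT-HSC 1 of 9 was at least 2-fold higher and 0 lower, beside 5.89% higher, 9.13% lower and so 15.0% called among 12448 genes compared. In progenitors against ST-HSC 1 was higher (Itgav) and 0 lower, beside 10.2% higher, 10.3% lower and so 20.5% called of 12420. In Lin+ cells against progenitors Itgb2 and Itgb7 were higher and Itga5 and Itgav lower, 4 of 9 called beside 41.8% of 12695 genes (14.8% higher and 27.0% lower). In Lin+ cells against LT-HSC Itgal, Itgb2 and Itgb7 were higher and Itga5 and Itga6 lower, 5 of 9 beside 40.1% of 13047 (16.4% higher and 23.6% lower). The shares of the integrins were thus near those of all genes in the Lin+ comparisons, and counts of 0 and 1 of 9 are too small to set against the others. The median difference of the 9 was 0.17, 0.025, 0.24 and 0.57 in the 4 comparisons, beside 0.028, 0.21, -0.42 and -0.21 for all measured genes. Differences under 2-fold still exceeded 1.96 spot errors for 6 genes in ST-HSC against LT-HSC, 5 in progenitors against ST-HSC, 3 in Lin+ cells against progenitors and 2 in Lin+ cells against LT-HSC. The same count was not made over all genes, so whether these are many or few is not known.

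The scaling sets part of these values, because the median gene itself moves with it. For progenitors against ST-HSC the median gene lay at 0.21, or at -0.055, 0.045, 0.00 and -0.42 with detected probes, median, quantile and spike-in scaling. For Lin+ cells against progenitors it lay at -0.42, or at -0.028, -0.49, -0.20 and 0.18. The share of higher genes among all calls was 39.2% for ST-HSC against LT-HSC but 62.9% with spike-in scaling. It was 49.6% for progenitors against ST-HSC but 29.6%, 36.7%, 38.9%, 33.1% and 13.8% with detected-probe, median, quantile, centred and spike-in scaling. For Lin+ cells against progenitors it was 35.5%, or 58.6%, 45.6%, 60.2% and 71.0% with detected-probe, quantile, centred and spike-in scaling. For Lin+ cells against LT-HSC it was 41.0%, or 30.7% with median, 51.2% with centred and 55.2% with spike-in scaling. With the median gene set to 0, Itgb2 was higher in Lin+ cells than in progenitors by 4.37, Itgb7 by 1.99 and Itga4 by 1.34, and Itga5 and Itgav gave -1.36 and -1.94. The split of called integrins there was 2 higher and 2 lower, or 3 and 2 centred, with quantile or with detected-probe scaling, 2 and 3 with median scaling, 4 and 2 with spike-in scaling and 3 and 1 with normexp. With the mean of all probes the split there was also 3 and 1, with Itgam added and Itgav lost. For progenitors against ST-HSC it was 1 and 0, or 1 and 1 with detected-probe scaling, 1 and 2 with spike-in scaling and 0 and 0 with the mean of all probes. For Lin+ cells against LT-HSC it was 3 and 2, or 3 and 1 with normexp and 4 and 2 with spike-in scaling (Itga4 added) or the mean of all probes (Itgam added).

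Differences involving the progenitor array also ran with gene span. With genes put into 5 groups by the length of their span, progenitors against ST-HSC had a median of 0.47 in the shortest group and -0.14 in the longest, and Lin+ cells against progenitors had -0.67 and -0.096. Itga2, Itga4, Itga6 and Itgav were in the longest group, Itgal, Itgam, Itgb1 and Itgb2 in the 4th and Itga5 and Itgb7 in the 3rd. Its part in the members' values was not tested.

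**Figure D4:**
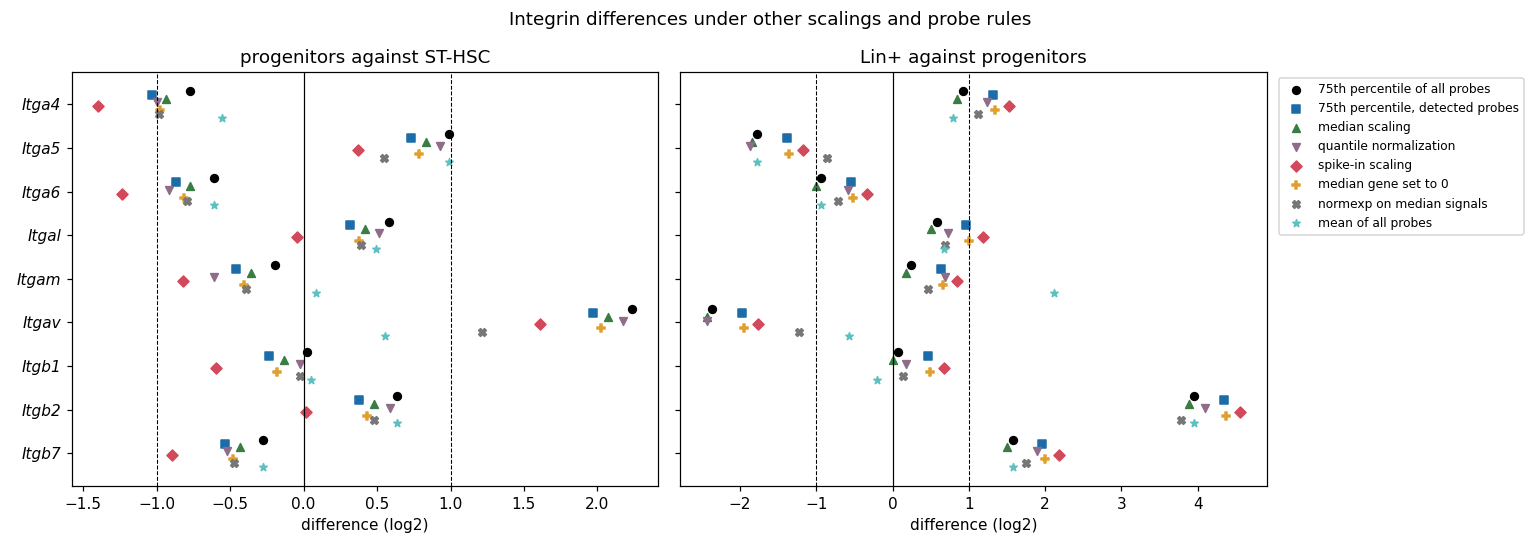
Difference (log2) of 9 integrin genes for progenitors against ST-HSC (left) and Lin+ cells against progenitors (right) under each scaling, background correction and probe rule. Dashed lines mark 2-fold. Itgb2 stays between 3.79 and 4.56 in Lin+ cells against progenitors, and Itgav and Itgam move most when all probes are averaged.

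Of 17 other integrin subunit genes 15 had a named probe, and 8 of those showed a called difference in at least 1 comparison. In ST-HSC against LT-HSC 1 of 6 measured was higher and 2 lower, or 2 and 1 with spike-in scaling. In progenitors against ST-HSC 2 of 6 were higher and 3 lower, or 1 and 3 with spike-in scaling. Lin+ cells had 3 of 8 higher and 3 lower against progenitors, or 3 and 1 with spike-in scaling and 3 and 2 with detected-probe scaling or the median gene set to 0, and 3 of 8 higher and 4 lower against LT-HSC. Among all genes 15.0%, 20.5%, 41.8% and 40.1% were called in these comparisons in turn. At this scaling the platelet pair was first lower and then higher. Itga2b, whose product CD41 pairs with beta 3 as the platelet fibrinogen receptor, had levels of 2.06, 0.92, 2.22 and -0.27 in LT-HSC, ST-HSC, progenitors and Lin+ cells. Itgb3 had 3.17, 0.93, 3.13 and 3.01. Both were lower in ST-HSC than in LT-HSC (-1.14 ± 0.21 and -2.24 ± 0.20) and higher in progenitors than in ST-HSC (1.30 ± 0.21 and 2.20 ± 0.20). With spike-in scaling Itga2b fell short of 2-fold in both of these comparisons, and Itgb3 was still called in both. In Lin+ cells against progenitors Itga2b gave -2.49 ± 0.21 while Itgb3 gave -0.13 ± 0.20. The other Itgb3 probe showed the same dip, at least 2.97-fold lower in ST-HSC than in LT-HSC. Megakaryocyte and platelet markers, a list that holds Itga2b, were lower in ST-HSC for 10 of 10 measured, higher in progenitors for 9 of 10 and lower in Lin+ cells for 10 of 10. Their part in Itgb3 was not tested.

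An alpha partner of beta 2 and a relative of beta 2 also differed. Itgax, which encodes CD11c of dendritic cells and macrophages, had -2.61, -0.39, -1.84 and 0.88 in the 4 fractions, 4.66-fold higher in ST-HSC than in LT-HSC and 6.55-fold higher in Lin+ cells than in progenitors. Itgb2l, a beta 2-like gene, had a level of 5.66 in Lin+ cells and was not well above background in LT-HSC, ST-HSC or progenitors. It was at least 370-fold higher in Lin+ cells than in progenitors and at least 389-fold higher than in LT-HSC. Among the remaining subunits, Itgb5 had 2.31, 3.10, 2.07 and 0.93 and was lower in Lin+ cells than in LT-HSC by a difference of -1.39 ± 0.20. Itgb4, the epithelial laminin receptor chain, had -0.46, -1.37, -1.35 and -2.84, a difference of -2.38 ± 0.32 for Lin+ cells against LT-HSC. Itga9 had -0.31, -0.48, -3.26 and -2.65 in the 4 fractions. Progenitors, where Itga9 was not well above background, lay at least 5.25-fold below ST-HSC. Itga1 was higher in Lin+ cells by at least 2.105-fold against progenitors on 1 probe, while its other probe showed no resolved difference from them. Itga8 and Itgad were well above background in Lin+ cells only, with no difference resolved. Itga3, Itga7, Itga11, Itgb6 and Itgb8 were not well above background on any array, and Itga10 and Itgae were not analysed here.

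**Figure D5:**
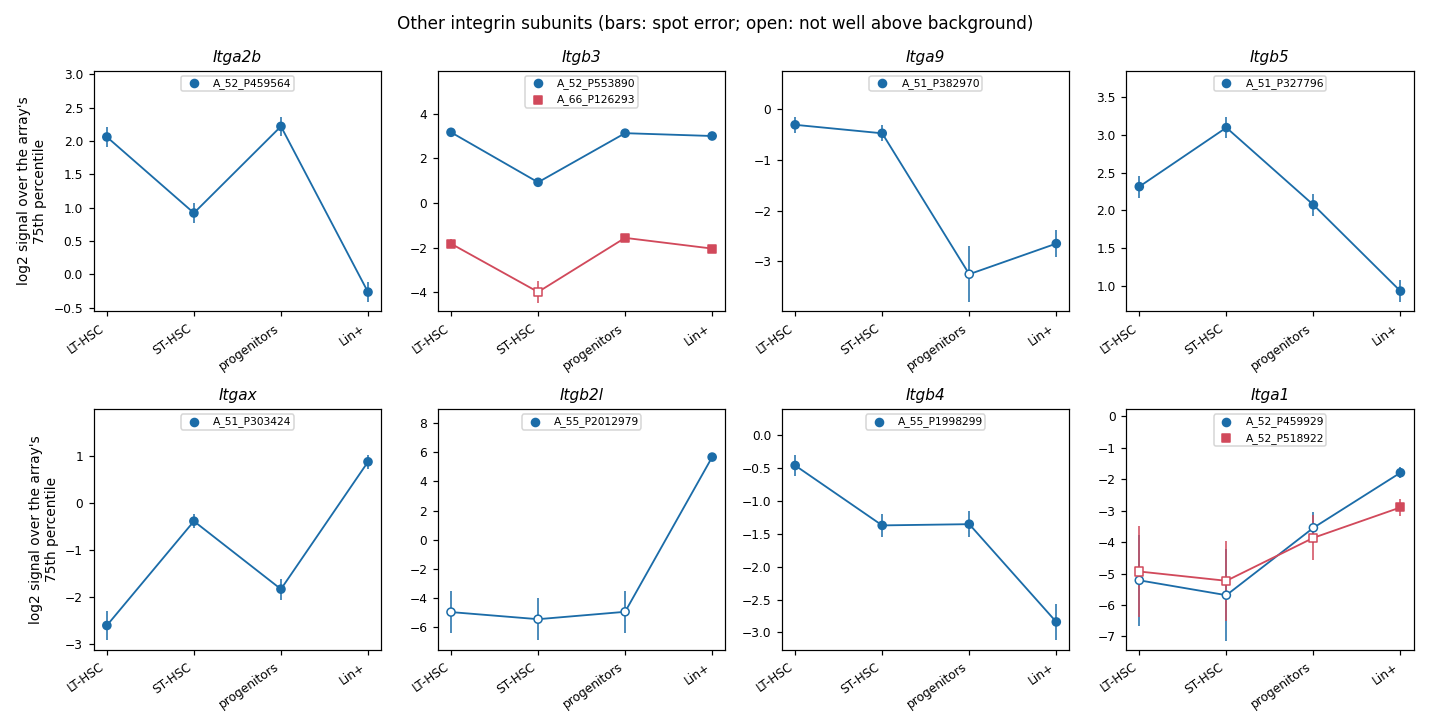
Levels of 8 other integrin subunit genes (log2 signal over the array's 75th percentile, 1 line per probe) in the 4 fractions, with spot error as bars and open symbols where not well above background. Itga2b and Itgb3 share a low point in ST-HSC, and Itgb2l is well above background in Lin+ cells alone.

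Of 29 genes of integrin ligands and counter-receptors 16 were measured in ST-HSC against LT-HSC, where 9 were lower and 0 higher in ST-HSC with a median of -1.13, beside 9.13% lower, 5.89% higher and a median of 0.028 among all genes. Among the junction proteins Jam2, a ligand of alpha 4 beta 1, had -2.72 in ST-HSC, against 0.43 in LT-HSC, and gave -3.14 ± 0.29, while its other probe was not well above background in either fraction. Jam3, a ligand of alpha M beta 2, gave -2.60 ± 0.21, and F11r, a ligand of alpha L beta 2, gave -2.22 ± 0.20. F11r had 4.03, 1.81 and 0.27 in LT-HSC, ST-HSC and progenitors and was not well above background in Lin+ cells, at least 147-fold below LT-HSC. The basement membrane genes Col4a1 and Col4a2 were at least 23.2-fold and 34.2-fold lower in Lin+ cells than in LT-HSC. Against progenitors, Lin+ cells had 9 of 17 measured ligand genes higher and 5 lower, or 9 and 3 with detected-probe or spike-in scaling or the median gene set to 0. Fn1, fibronectin, had 7.01 in Lin+ cells, against 0.023 in progenitors, a difference of 6.99 ± 0.21, and Thbs1, thrombospondin, differed by 4.01 ± 0.20. Vcam1, the counter-receptor of alpha 4 beta 1 and a marker on the macrophage list, had -1.90, 1.94 and 4.02 in LT-HSC, progenitors and Lin+ cells, and in ST-HSC its signal did not clear background. On that probe, the brighter of 2, Vcam1 was at least 40.15-fold higher in progenitors than in ST-HSC. Its other probe had -1.67 in progenitors and 0.54 in Lin+ cells and did not clear background in LT-HSC or ST-HSC. Icam1 and Icam2, ligands of alpha L beta 2, had opposite signs in Lin+ cells against progenitors, 1.67 ± 0.27 for Icam1 and -1.25 ± 0.20 for Icam2. In progenitors against ST-HSC 2 of 17 ligand genes were higher and 4 lower, and in Lin+ cells against LT-HSC 8 of 20 were higher and 10 lower, or 9 and 7 with spike-in scaling or the median gene set to 0. Among all genes 20.5% were called in progenitors against ST-HSC, 41.8% in Lin+ cells against progenitors and 40.1% in Lin+ cells against LT-HSC.

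The talin gene Tln1 and the kindlin gene Fermt3, whose products switch integrins on, differed by less than 1.5-fold in every comparison at this scaling. Fermt3 spanned 1.488-fold, close to that limit, and neither gene was followed under other scalings. Fermt1 and Fermt2 were not well above background on any array, and Tln2 only in ST-HSC and Lin+ cells. Tln1, talin, had 7.70, 7.44, 7.77 and 7.71 in LT-HSC, ST-HSC, progenitors and Lin+ cells, and Fermt3, the kindlin of blood cells, had 3.86, 3.29, 3.71 and 3.49. Of 44 activator, adaptor and brake genes 2 of 35 measured were higher and 2 lower in ST-HSC against LT-HSC, and 4 of 36 higher and 2 lower in progenitors against ST-HSC, or 2 and 3 with detected-probe scaling, 2 and 2 with median scaling or the median gene set to 0, and 1 and 10 with spike-in scaling. Among all genes 15.0% and 20.5% were called in these 2 comparisons. In Lin+ cells against progenitors 11 of 38 were higher and 1 lower, beside 14.8% higher and 27.0% lower among all genes. Against LT-HSC 14 of 39 were higher and 1 lower, beside 16.4% and 23.6%. Fgr, a kinase downstream of beta 2 in myeloid cells, was at least 38.05-fold higher in Lin+ cells than in progenitors. Skap1, an adaptor of LFA-1 activation in T cells, was at least 29.75-fold higher, and Actn1, an actin cross-linker, at least 5.64-fold. Ptk2, focal adhesion kinase, had -0.61, -2.27 and -2.12 in the first 3 fractions, and Lin+ cells, where it was not well above background, lay at least 7.22-fold below LT-HSC. Cytip, which restrains beta 2 adhesion, was higher in Lin+ cells than in progenitors by 2.07 ± 0.20.

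Among 11 tetraspanins and other membrane partners, 1 was higher and 2 lower in ST-HSC than in LT-HSC, namely Cd53 at 1.56 ± 0.21, Cd9 at -1.42 ± 0.20 and Cd63 at -1.11 ± 0.20, and with spike-in scaling the split was 1 and 1. In progenitors against ST-HSC 2 were higher, Cd63 and Cd82, and 0 lower, with 0 and 1 by detected-probe scaling or quantile normalization, 0 and 2 by spike-in scaling and 0 called with median scaling or the median gene set to 0. In Lin+ cells against progenitors 4 were higher and 1 lower, or 7 and 1 with quantile normalization and 7 and 0 with spike-in scaling. Plaur, the urokinase receptor that associates with Mac-1, was 3.08 ± 0.20 higher, and Cd151, a partner of the laminin-binding integrins alpha 3 and alpha 6, gave -1.56 ± 0.20. Cd151 had 4.15, 3.65, 3.42 and 1.87 in LT-HSC, ST-HSC, progenitors and Lin+ cells, while its other probe gave -0.34 ± 0.22 for Lin+ cells against progenitors, no call. In Lin+ cells against LT-HSC 5 were higher and 2 lower, or 5 and 1 with detected-probe or spike-in scaling or the median gene set to 0. Among all genes 15.0%, 20.5%, 41.8% and 40.1% were called in these comparisons in turn.

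Of the 10 integrins 6 were above background throughout and spanned at least 2-fold, and the 3 genes nearest to each in pattern were taken from 10614 genes. Distance was the root mean square difference of the 4 levels after each gene's own mean was removed, which over 4 arrays is a description only. Nearest to Itga6 were Rab11fip5 at 0.031, Lmo2 at 0.039 and Sfxn4 at 0.049, where Lmo2, a transcription cofactor of early blood cells, had 7.74, 7.24, 6.71 and 5.675 from LT-HSC to Lin+ cells. Nearest to Itgal were H3c11 at 0.065, Tnf at 0.11 and Pdzd4 at 0.11. For Itgb2 they were Thbs1 at 0.14, Grina at 0.15 and Epha2 at 0.19. Thbs1, itself on the ligand list, had 1.13, 0.43, 1.33 and 5.33. Itgb7 was nearest to Nfkbiz, Dck and Klhl25, at 0.045 to 0.054, and Itga5 to Catsperg2, Sult2b1 and Gal3st2, at 0.033 to 0.057. The probe of Itgav that was high in progenitors was nearest to Pvt1 at 0.11, Rn28s1 at 0.21 and Rnu3b1 at 0.24, and the 28S ribosomal RNA gene Rn28s1 had 9.68, 9.84, 11.57 and 9.52.

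Promoter sequence was at hand in RefSeq's table for build GRCm38.p6 for 7 of the 10 genes, and not for Itga6, Itgal and Itgb2. Each window runs from 250 bases before the transcript start to 50 after it, read 5′ to 3′ on the gene's strand. Shown are 3, those of Itgam and Itgb7, which were higher in Lin+ cells (Itgam on 2 of its 3 probes), and for contrast that of Itga5, which was lower. The Itgam window is chr7:128062390-128062689 on the plus strand, that of Itgb7 is chr15:102231886-102232185 on the minus strand and that of Itga5 is chr15:103366742-103367041 on the minus strand. Capitals mark 4 short motifs searched on both strands, namely GAGGAA for PU.1, a myeloid factor known to drive Itgam, GGGCGG as a GC box, AGATAA for GATA factors and TGTGGT for RUNX factors.
Itgam: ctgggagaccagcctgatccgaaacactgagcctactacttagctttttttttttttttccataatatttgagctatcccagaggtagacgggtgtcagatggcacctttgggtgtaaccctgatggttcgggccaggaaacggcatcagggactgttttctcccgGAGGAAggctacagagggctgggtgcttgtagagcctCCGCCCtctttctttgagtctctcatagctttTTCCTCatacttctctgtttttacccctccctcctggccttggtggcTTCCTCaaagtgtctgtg
Itgb7: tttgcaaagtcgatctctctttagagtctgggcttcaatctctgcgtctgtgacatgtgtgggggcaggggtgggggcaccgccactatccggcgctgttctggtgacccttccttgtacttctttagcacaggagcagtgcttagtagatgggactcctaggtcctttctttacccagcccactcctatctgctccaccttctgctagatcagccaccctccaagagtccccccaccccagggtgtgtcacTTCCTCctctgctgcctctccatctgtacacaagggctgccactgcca
Itga5: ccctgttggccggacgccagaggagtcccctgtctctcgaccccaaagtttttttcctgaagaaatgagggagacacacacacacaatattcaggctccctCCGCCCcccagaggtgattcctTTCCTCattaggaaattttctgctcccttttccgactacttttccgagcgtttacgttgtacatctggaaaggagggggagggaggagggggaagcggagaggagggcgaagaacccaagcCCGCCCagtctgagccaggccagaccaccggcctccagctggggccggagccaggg
The Itgam window holds GAGGAA 3 times, beginning at positions -84, -15 and 32 from the transcript start, and 1 GC box. The Itgb7 window holds 1 GAGGAA and no GC box, and the Itga5 window 1 GAGGAA and 2 GC boxes. Of the 7 windows 5 hold the PU.1 letters, 6 the GC box, 0 the GATA letters and 1 the RUNX letters, where among 32851 windows of the same length 28.3%, 35.7%, 11.2% and 16.8% hold them. No motif overlaps another in these 3 windows. GAGGAA is thus present in the Itgam and Itgb7 windows and also in that of Itga5, which was lower in Lin+ cells. Itgal and Itgb2, higher in Lin+ cells than in LT-HSC, had no window to search. A match is only these letters, not a measured binding site.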

How the data were processed

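Total RNA of 4 sorted fractions, 10 ng per sample, was amplified with Cy3 for Agilent arrays, per the labels' protocols. The deposited scanner files hold spot intensity from Agilent Feature Extraction 10.7.1.1 (per the submitters' processing notes), with background subtracted and spatial trends removed within each array per the file headers and no scaling between arrays. A deposited value table gives a linear ratio, which for 100% of probes matched the scanner's processed signal over a single number for each array (190.9, 216.9, 137.2 and 229.8) within 1%, so its scale and direction are known. Its medians were 0.0619, 0.0630, 0.0704 and 0.0738, and it served as an alternative.

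Control spots and outlier flags were left out, which dropped 3 of 55681 probes. No spot was saturated. Log2 signals were scaled by each array's 75th percentile in Python 3.11.15. Of the kept probes 48.1% were named by unversioned accession through RefSeq's GRCm38.p6 table, while the array design is on build mm9, so no coordinates of probes were used and gene spans are RefSeq's. The brightest probe over the 4 arrays stood for a gene. A probe counted as well above background when all its spots were flagged so. For a dim side, the array's lowest value well above background, or the probe's own if that was higher, was used (-2.94, -3.388, -2.868 and -3.465 from LT-HSC to Lin+ cells), giving "at least" folds. A dim side in both fractions, or a bound under 1-fold, left a difference unresolved. Each member probe had 1 spot, so the precision is limited by the number of arrays.

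The 3 neighbouring pairs of fractions and Lin+ cells with LT-HSC were compared. Alternatives were 5 other scalings, normexp (limma 3.58.1, offset 50), the value table, filters on dim probes, probe rules and calls at 1.5-fold and 4-fold. The files hold no mean spot signal, so normexp used median signals, a choice made after the files were seen. The members and gene lists were chosen with earlier results of these data known. Named were all members and other subunits, up to 4 called genes per list and comparison, dim markers, near misses of the 2-fold call and the nearest 3 genes in pattern. Not every gene this allows is printed. Tln1, Fermt3, Cytip, Icam1 and Icam2 fall outside this rule and were chosen after their values were seen.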

Additional observations from a re-analysis of the deposited data

How the results depend on the processing

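Of 382 values of single integrin genes under other settings, 335 moved by less than 1.96 spot errors, 45 moved further and 2 reversed, both on the dimmer Itgav probe, at -0.41 for progenitors against ST-HSC and 0.49 for Lin+ cells against progenitors. Part of the 335 could not move, so their number does not measure stability. The filters on dim probes left these genes as they were, and the value table is the same signal over a single number for each array. Averaging probes cannot change Itga5, Itga6, Itgb2 and Itgb7, which have a single probe. Of 288 counts, 59 moved by over 1.5 times, and the cause was not tested except where the call itself was changed. Called integrin genes numbered 4 in ST-HSC against LT-HSC and 5 in progenitors against ST-HSC at 1.5-fold. At 4-fold they numbered 0 in ST-HSC against LT-HSC, 2 in Lin+ cells against progenitors and 3 in Lin+ cells against LT-HSC. In progenitors against ST-HSC they numbered 2 with detected-probe scaling, 3 with spike-in scaling and 0 with the mean of all probes.

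Of all named genes, 3701, 5651 and 8097 were called at 1.5-fold in ST-HSC against LT-HSC, progenitors against ST-HSC and Lin+ cells against progenitors. At 4-fold 506, 601, 1578 and, in Lin+ cells against LT-HSC, 2213 were called. Without the filter and floor the first 2 comparisons gave 2929 and 3908, and with normexp the first 3 gave 1057, 1338 and 3439. For activators, the counts at 1.5-fold were 11, 13 and 21 in the first 3 comparisons and at 4-fold 0, 0, 5 and 6. They were 8 without the filter and 2 with normexp in ST-HSC against LT-HSC, and 3 with normexp and 11 with spike-in scaling in progenitors against ST-HSC. Ligand counts were 10 at 1.5-fold in progenitors against ST-HSC and 3, 3, 5 and 10 at 4-fold. With both sides above background they were 3, 8 and 9 in the last 3 comparisons, and 7 with normexp in Lin+ cells against progenitors. Other subunits numbered 5 at 1.5-fold in ST-HSC against LT-HSC, 2 and 3 at 4-fold and 3 and 3 with normexp in the next 2 comparisons, and 11 without the filter in Lin+ cells against LT-HSC. Tetraspanins and partners numbered 6 and 8 at 1.5-fold in the middle 2 comparisons, 0, 0, 1 and 2 at 4-fold, and 8 with quantile normalization in Lin+ cells against progenitors. In progenitors against ST-HSC they numbered 1 with detected-probe scaling, quantile normalization or the mean of all probes, and 0 with median scaling, the median gene set to 0 or normexp.

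No paired analysis was possible because each fraction has a single array. No array was left out, for the same reason. Normexp on mean spot signals was not run, since median signals took its place. Itga2, not well above background on any array, gave no resolved difference, signals near background limit Itga5, Itgav and the dim Itgam probes, and no value here measures the spread between mice.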
